A study of Mus musculus with 20 samples.

Results

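MHC class I and class II antigen presentation was followed through 34 genes of the mouse SCCVII tumor, a squamous cell carcinoma line that grows in immunocompetent C3H/HeOuJ mice. The genes were chosen by name, as the rows of the count table whose Ensembl identifier maps to a fixed list of symbols. The rule uses no measured value, but the list was drawn up with earlier results of these data known. All 34 were found among the 54309 genes of the table, and all 34 passed the filter on low counts that left 19567 genes to be tested. They were split into 23 class I and 11 class II members, which filled 11 roles: heavy chains, light chain, immunoproteasome and its activator, peptide transport and trimming, loading and transactivator for class I, and chains, invariant chain, peptide exchange, transactivator and antigen processing for class II.

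The mice carried SCCVII cells under the skin of the flank and were treated once the tumors could be felt. There were 10 groups of 2 libraries, called replicates A and B. The factorial of 8 groups (16 libraries) held every combination of 3 agents: control mice, mice given APG-157 only, anti-PD-1 only or anti-CTLA-4 only, the pair anti-PD-1 + anti-CTLA-4 (called dual antibody), APG-157 joined to either antibody, and all 3 agents (called triple combination). The other 2 groups received anti-CD8, which depletes CD8+ T cells, either without another agent or on top of APG-157 + anti-CTLA-4 (called anti-CD8 combination). APG-157 is a botanical drug from *Curcuma longa* that contains curcumin and was mixed into the food, and the antibodies were injected into the abdomen. Every group therefore shares strain, tumor line and site, with no engineered allele, and the tumor is 1 cell line. The age of the mice was not given in the sources used here. In the study the anti-CD8 groups belonged to a second mouse experiment, which also had control and APG-157 + anti-CTLA-4 mice. The labels do not say from which experiment the control and APG-157 + anti-CTLA-4 libraries came. Experiment and CD8 depletion therefore cannot be told apart in comparisons that involve anti-CD8. Other comparisons that use control or APG-157 + anti-CTLA-4 libraries, those over the factorial among them, may mix experiments too. The labels do not say whether A and B were separate tumors, so p-values measure the spread between these libraries, which may be technical. In the paper, tumor material of the APG-157 + anti-CTLA-4 group was scarce. It reports 1 small tumor for flow cytometry and staining, and 1 for the later blot. Which tumors gave the RNA is not stated.

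Class I molecules are made by nearly all cells. A heavy chain (H2-K1, H2-D1 and the H2-Q, H2-T and H2-M genes) pairs with B2m and with a peptide that the proteasome cut, the Tap1/Tap2 pump carried into the endoplasmic reticulum, Erap1 trimmed and the loading complex of Tapbp, Calr and Pdia3 fitted, and the complex is read by CD8+ T cells. Class II molecules are made mainly by dendritic cells, macrophages and B cells. Their alpha and beta chains (H2-Aa, H2-Ab1, H2-Eb1) travel with the invariant chain Cd74 to endosomes, where cathepsin S (Ctss) and the thiol reductase Ifi30 act, H2-DM exchanges the peptide and H2-O restrains H2-DM, and CD4+ T cells read the product. The transactivators Nlrc5 for class I and Ciita for class II act on promoters that share a module of short boxes, and interferon gamma is the best-known inducer of both.

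The promoter windows of 6 members are shown because class I and class II are compared throughout and these windows show the letters that the 2 classes share. They come from RefSeq on build GRCm38.p6, another build than that of the counts (GRCm39), and run 5′ to 3′ up to the base before the annotated start. Capitals mark ATTGG or CCAAT (the same box on either strand, the letters of the Y box bound by NF-Y) and GAAA followed after any 2 bases by GAAA, on either strand (a core of the interferon-stimulated response element). The class II windows come first.
H2-Aa (chr17:34287824-34287943, minus strand): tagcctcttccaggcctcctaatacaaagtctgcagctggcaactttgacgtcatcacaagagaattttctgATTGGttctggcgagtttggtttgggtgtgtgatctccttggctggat
H2-Eb1 (chr17:34305747-34305866, plus strand): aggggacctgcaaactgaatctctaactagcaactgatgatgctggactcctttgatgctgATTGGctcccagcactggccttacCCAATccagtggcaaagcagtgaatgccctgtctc
H2-DMb1 (chr17:34153071-34153190, plus strand): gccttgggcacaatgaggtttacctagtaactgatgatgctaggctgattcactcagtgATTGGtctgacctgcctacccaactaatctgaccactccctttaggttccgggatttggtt
H2-Ob (chr17:34238785-34238904, plus strand): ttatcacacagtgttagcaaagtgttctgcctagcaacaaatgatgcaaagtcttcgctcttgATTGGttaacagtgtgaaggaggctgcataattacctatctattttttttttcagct
B2m (chr2:122147537-122147686, plus strand): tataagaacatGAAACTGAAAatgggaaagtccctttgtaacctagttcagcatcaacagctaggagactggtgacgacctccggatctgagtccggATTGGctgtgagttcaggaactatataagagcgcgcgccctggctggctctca
H2-T23 (chr17:36032702-36032851, minus strand): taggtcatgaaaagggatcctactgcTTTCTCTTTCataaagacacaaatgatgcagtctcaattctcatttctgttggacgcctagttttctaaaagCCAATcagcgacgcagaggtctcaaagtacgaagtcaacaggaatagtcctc

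The Y box letters stood 48 bases before the start in H2-Aa, 59 and again 35 bases before it in H2-Eb1, 61 in H2-DMb1, 57 in H2-Ob, 53 in B2m and 52 in H2-T23. B2m held the interferon element 139 bases and H2-T23 124 bases before the start (windows of 150 bases, where the class II windows have 120). The longer promoters of these 4 class II genes, searched over 250 bases before and 50 after the start, did not hold those letters. Promoters of that length were found for 28 members; Cd74, Tap2, Tapbpl, Nlrc5, H2-Ab1 and Ciita had no entry. Of the 28, the box CCAAT occurred in 21 (15 of 20 class I, 6 of 8 class II), against 37.4% of 32851 promoters in the table. The paired GAAA occurred in 6 (5 of class I and Ctss of class II), against 3.44% of the table. Both class I windows shown above are among those 5, so they do not stand for their class. H2-K1, H2-D1 and the H2-Q members did not match this exact string, which can miss variants of the element. The letters of the GAS element of interferon gamma signalling (TTCNNNGAA, N being any base) were also searched. They occurred in 2 of the 28 (2 of class I, 0 of class II), against 8.3% of the table, and so were not more frequent in the members. These are matches of letters on the reference strain, not measured binding.

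The totals of the 20 libraries lay between 43.9 and 72.1 M expected counts with a median of 54.9 M, and the common biological coefficient of variation of the fit was 38.7%. The 2 APG-157 + anti-CTLA-4 libraries differed by only 4.25% beyond counting error, where the pairs of the other groups differed by 20.8% to 68.2%. As an alternative, this pair was summed to 1 sample in the fit of all groups. Anti-CD8 + APG-157 + anti-CTLA-4 replicate B stood apart, with the adipocyte genes summed to 2252 CPM (counts scaled to the library total, with TMM factors) and the epithelial gene Epcam at 218 CPM, where the medians over the libraries were 2.78 and 0.212. The skeletal muscle genes also differed widely, with a median of 38.6 CPM for their sum. They summed to 4910 CPM in replicate A of the triple combination (replicate B 1.75). APG-157 + anti-PD-1 replicate A held 3663 CPM (replicate B 1.43), anti-CTLA-4 replicate B 1793 CPM (replicate A 5.76) and anti-CD8 replicate A 1024 CPM (replicate B 18.1). The labels name head and neck cancer cells. The keratins Krt8 (508 to 981 CPM) and Krt18 (468 to 1258 CPM) were present in every library, whereas the squamous markers Krt5 (0 in 16 libraries, highest 6.97 CPM) and Krt14 (0 in 4, highest 6.50 CPM) were almost absent. Cd8a was at 0.121 to 0.381 CPM in the 4 anti-CD8 libraries and at 0.608 to 56.6 CPM in the other 16.

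C3H mice carry the H2-k haplotype, while the reference transcripts come from C57BL/6, which carries H2-b. Values of single heavy chains are therefore uncertain, since reads can be shared between near-identical transcripts or fail to match. Of the 31-base words in the longest reference transcript, the share found in some other gene was 23.3% for H2-K1, 27.5% for H2-D1, 43.4% for H2-Q4, 50.3% for H2-Q6, 48.6% for H2-Q7, 48.4% for H2-T23 and 4.62% for H2-M3. It was highest for H2-T22 at 63.3%, most of it shared with H2-T10 (55.8%). The 8 heavy chains were for this reason also summed and fitted as 1 feature. H2-Ea, the class II alpha chain that C57BL/6 does not make and C3H does, was counted in every library, from 31.1 to 1038 CPM with a median of 260 CPM.

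Per kilobase of transcript, the light chain B2m had the highest mean level of the members over the 20 libraries (3336 CPM per kb), followed by H2-K1 (1523), Cd74 (1315), Ctss (895), H2-Aa (755) and H2-D1 (606), all on the same scale. H2-Oa (1.27 CPM per kb) and H2-Ob (2.48 CPM per kb), the chains of H2-O that are best known from B cells, were lowest. The B cell list was low as well, with 8 genes that summed to 1.34 to 7.13 CPM.

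Class II members ranged more widely over the libraries than class I members, with a median range of 16.9-fold against 3.33-fold. H2-Aa, the alpha chain of I-A, was at 540 and 846 CPM in control replicates A and B. The APG-157 libraries held 63.8 and 214 CPM, the anti-PD-1 libraries 471 and 958, and the anti-CTLA-4 libraries 1923 and 73.3. The combinations gave 1272 and 574 CPM for APG-157 + anti-PD-1, then 619 and 606 with APG-157 + anti-CTLA-4, 2363 and 2593 with dual antibody and 2377 and 106 with the triple combination. With anti-CD8 it was at 70.1 and 95.0 CPM, and with the anti-CD8 combination at 430 and 833 CPM. The range over all libraries was thus 40.7-fold, and the 2 libraries of 1 treatment could differ almost as much: 26.3-fold with anti-CTLA-4 and 22.4-fold with the triple combination, in each case with replicate A high and replicate B low. In bulk tumors, fewer cells that express a gene and less RNA per cell cannot be told apart.

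Ordered by group mean, H2-Aa was highest with dual antibody at 2478 ± 163 CPM (SD, n = 2) and lowest with anti-CD8 at 82.5 ± 17.6 and APG-157 at 139 ± 106. The groups between were the triple combination (1242 ± 1606), anti-CTLA-4 (998 ± 1308), then APG-157 + anti-PD-1 (923 ± 494), anti-PD-1 (715 ± 344), control (693 ± 217), the anti-CD8 combination (631 ± 285) and APG-157 + anti-CTLA-4 (612 ± 9.36). Neighbours in this order between 612 and 1242 CPM differed by less than the larger of their SDs, and so did anti-CD8 and APG-157.

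The other class II members followed the same libraries. Cd74, the invariant chain, ranged from 152 CPM (APG-157 replicate A) to 5648 CPM (dual antibody replicate B), a 37.3-fold range, with control at 1222 and 1835 CPM. Ciita, the class II transactivator, ranged from 3.16 CPM (anti-CTLA-4 replicate B) to 105 CPM (dual antibody replicate B), or 33.3-fold. H2-Ab1 and H2-Eb1 both spanned 37.7-fold, H2-DMb1 16.9-fold, H2-DMa 13.9-fold and H2-Ob 13.3-fold. The endosomal enzymes moved least among class II: Ctss 4.52-fold and Ifi30 2.20-fold.

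**Figure D1:**
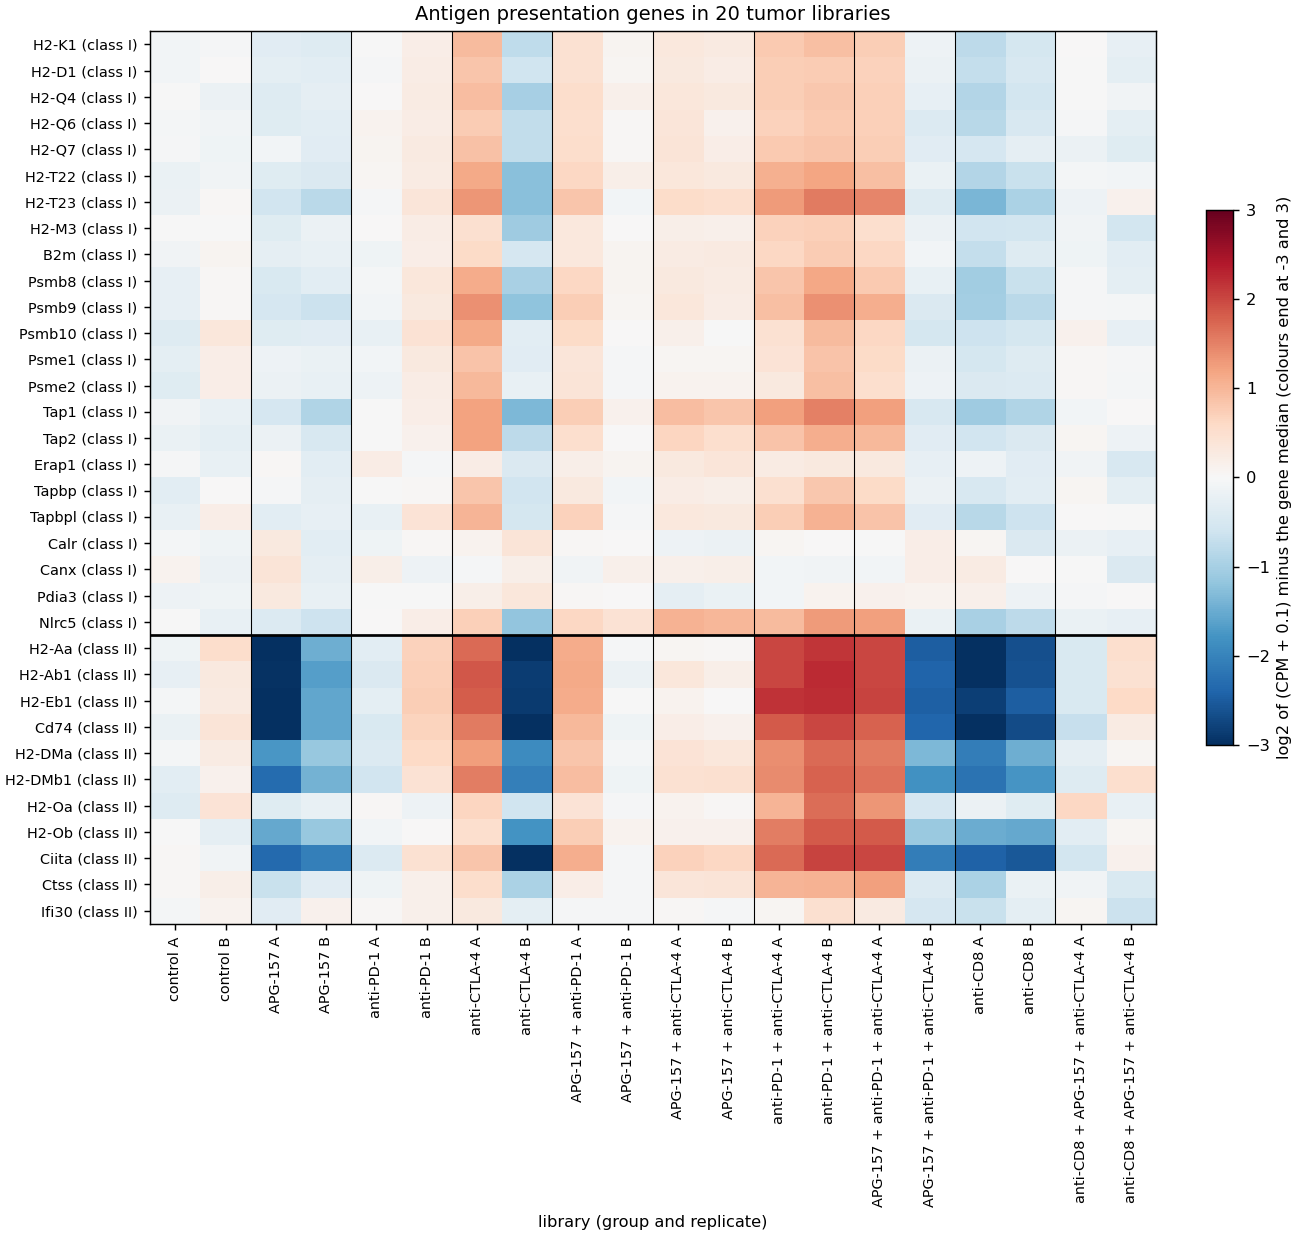
Level of each of the 34 members (rows, class I above the thick line and class II below it) in each of the 20 libraries (columns, replicates A and B of each group side by side), coloured by log2 of (CPM + 0.1) minus the gene's median over libraries. The class II rows show the strongest colours, red in both dual antibody libraries and in replicate A only of anti-CTLA-4 and of the triple combination, and blue in both anti-CD8 and both APG-157 libraries, while Calr, Canx and Pdia3 stay pale.

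Class I members moved over narrower ranges. H2-K1, the K heavy chain, was at 2082 and 2173 CPM in control, 1756 and 1685 in the APG-157 libraries, 2189 and 2556 in those given anti-PD-1, and 4251 and 1303 in those given anti-CTLA-4. The level was 3057 and 2335 CPM for APG-157 + anti-PD-1, then 2776 and 2658 with APG-157 + anti-CTLA-4, 3805 and 4114 with dual antibody and 3690 and 1988 with the triple combination. It was at 1275 and 1531 CPM with anti-CD8 and 2242 and 1864 with the anti-CD8 combination. The range was 3.33-fold, and both dual antibody libraries lay above both control libraries while both APG-157 and both anti-CD8 libraries lay below them.

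B2m, the light chain of all these heavy chains, ranged 2.78-fold, from 1636 CPM (anti-CD8 replicate A) to 4541 CPM (dual antibody replicate B), with control at 2476 and 2830 CPM. The widest class I ranges belonged to H2-T23, the Qa-1 chain that displays leader peptides of other class I chains (7.63-fold, 51.8 to 396 CPM), and to Tap1 (7.25-fold, 43.9 to 318 CPM). Nlrc5, the class I transactivator, spanned 5.51-fold from 24.3 CPM (anti-CTLA-4 replicate B) to 134 CPM (dual antibody replicate B). The immunoproteasome subunits spanned 5.96-fold (Psmb9), 4.56-fold (Psmb8) and 3.41-fold (Psmb10). The general chaperones Canx, Calr and Pdia3, which fold many glycoproteins besides class I, spanned only 1.52- to 1.76-fold, and the peptidase Erap1 1.78-fold. In SD of log2 CPM over the 20 libraries, the median member was at 0.49 in class I and 1.35 in class II, beside 0.34 for all genes tested.

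**Figure D2:**
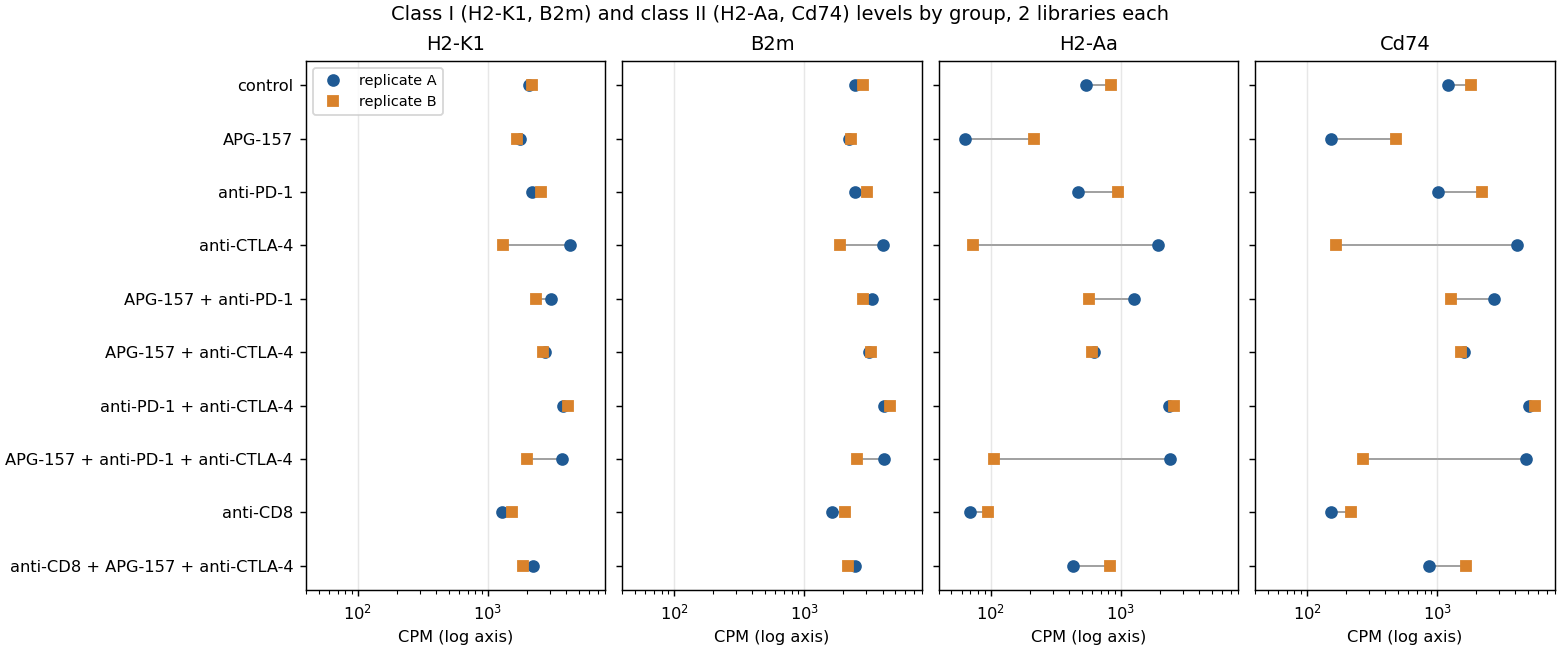
CPM on a log axis for the class I genes H2-K1 and B2m and the class II genes H2-Aa and Cd74 in the 10 groups, with replicate A as circles, replicate B as squares and a grey line between the 2 libraries of a group. The grey lines are long for H2-Aa and Cd74 with anti-CTLA-4 and with the triple combination (26.3-fold and 22.4-fold for H2-Aa) and short for all 4 genes with APG-157 + anti-CTLA-4.

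Some pairs of genes within a class kept nearly fixed proportions and others did not. The ratio of H2-Aa to H2-Ab1, the alpha and beta chains of the same I-A molecule, stayed between 1.93 and 2.69 over the 20 libraries, and that of Cd74 to H2-Aa between 2.01 and 2.61. The ratio of H2-K1 to H2-D1 stayed between 1.69 and 2.10, and that of Psme1 to Psme2, the subunits of the proteasome activator PA28, between 0.976 and 1.15. Tap1 and Psmb9, neighbours that are read in opposite directions from a shared promoter, had a ratio between 0.974 and 1.79. Wider within a class were Tap1 to Tap2 (1.98-fold over the libraries), H2-DMa to H2-DMb1 (2.01-fold), H2-K1 to its transactivator Nlrc5 (2.23-fold), B2m to Nlrc5 (2.77-fold), Cd74 to Ciita (3.01-fold) and H2-Aa to Ciita (3.32-fold). Of the pairs computed, those across classes ranged most widely. The ratio of H2-Aa to H2-K1 ran from 0.0363 (APG-157 replicate A) to 0.644 (replicate A of the triple combination), a 17.7-fold range, and that of Nlrc5 to Ciita spanned 6.58-fold, from 1.25 to 8.25. These ratios are read counts not scaled by length and describe proportions between transcripts, not between proteins. Those between heavy chains also carry the uncertain split of reads among near-identical transcripts, so a level ratio need not reflect the true proportion.

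**Figure D3:**
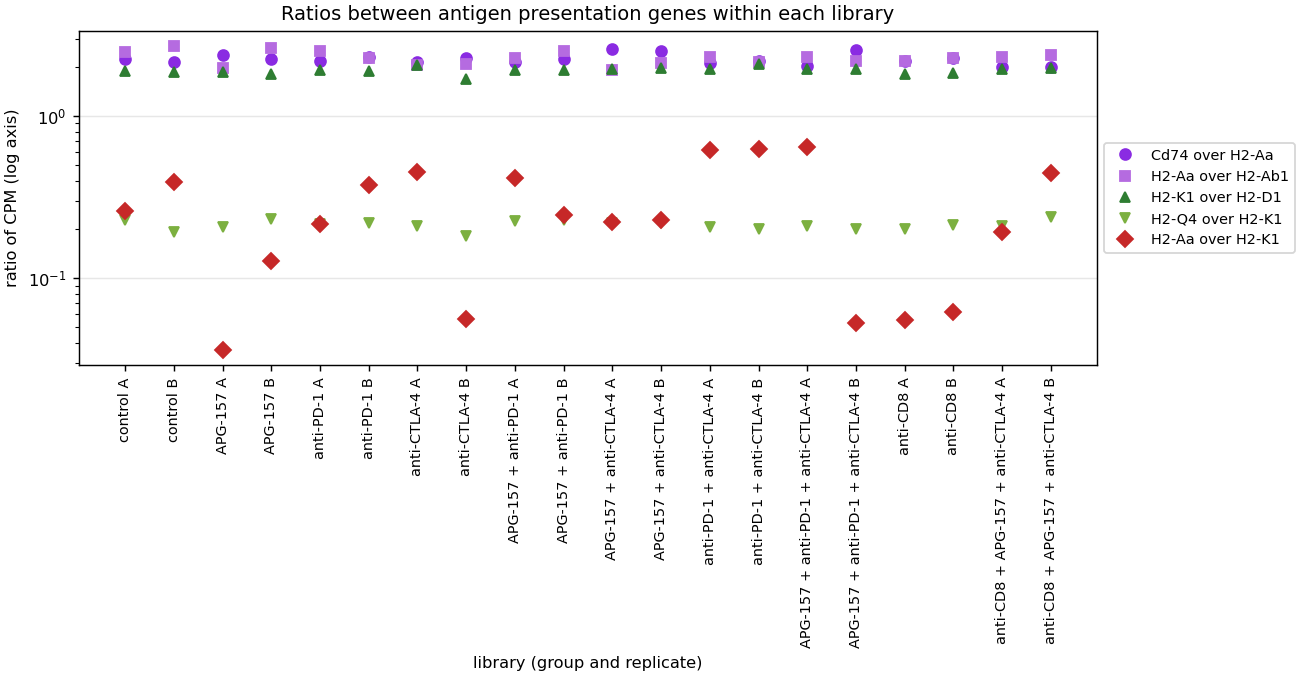
Ratio of CPM, on a log axis, between 5 pairs of members in each of the 20 libraries. The 4 pairs within a class (Cd74 over H2-Aa, H2-Aa over H2-Ab1, H2-K1 over H2-D1, H2-Q4 over H2-K1) run nearly level, each with a range of at most 1.39-fold, whereas H2-Aa over H2-K1 ranges 17.7-fold. The ratios between heavy chains carry the uncertain split of reads among near-identical transcripts.

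The same libraries were high for most members. The 5 libraries with the highest H2-Aa were both dual antibody libraries and replicate A of anti-CTLA-4, of APG-157 + anti-PD-1 and of the triple combination, and these were also the 5 highest for 8 of the 11 class II members (H2-Aa among them) and for 16 of the 23 class I members. They were also the 5 highest for the summed T cell list, which ran from 8.95 CPM (anti-CD8 replicate A) to 283 CPM (dual antibody replicate B), a 31.6-fold range over 9 genes. Cd8a and Cd8b1 are among these 9 genes, so depletion of CD8+ T cells lowers the sum directly. Of the lists for cells that make class II, the 11 dendritic cell genes summed to 173 to 369 CPM (2.13-fold). The 12 macrophage genes summed to 3318 to 9803 CPM (2.95-fold). Ranked by mean log2 level over the list, the 5 highest libraries shared 4 with H2-Aa for dendritic cells and 3 for macrophages. By summed CPM the dendritic cell list did not follow H2-Aa. Both dual antibody libraries (291 and 293 CPM) lay below its median of 296 CPM. The summed macrophage list was highest in the dual antibody libraries (9803 and 8838 CPM) and in replicate A of the triple combination (9121 CPM). These were also the 3 highest libraries for H2-Aa. Beside its median of 7186 CPM, this list was at 7204 CPM in anti-CTLA-4 replicate A and at 6233 CPM in replicate A of APG-157 + anti-PD-1. Interferon gamma (Ifng) was at 6.05 and 0.142 CPM in anti-CTLA-4 replicates A and B and at 9.08 and 0.582 CPM in replicates A and B of the triple combination, the groups whose class II levels split in the same way. The part of these cells and of interferon gamma in the class I and class II levels was not tested.

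**Figure D4:**
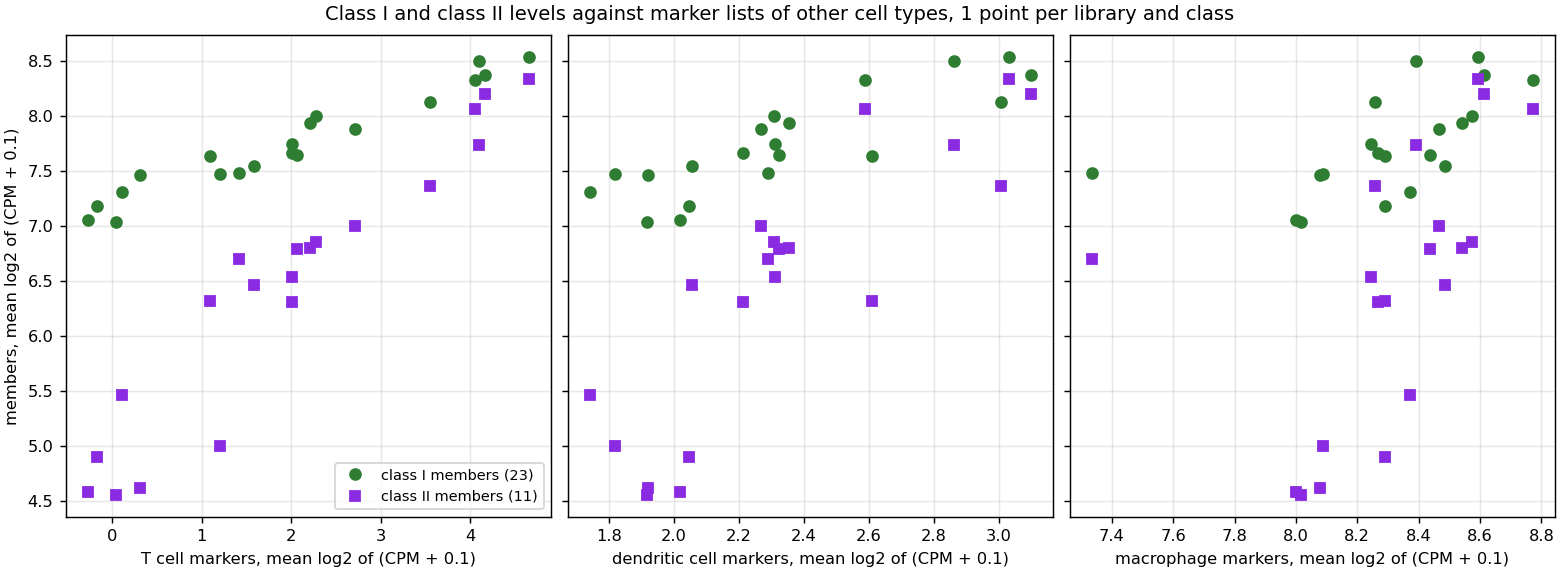
Mean log2 of (CPM + 0.1) of the 23 class I members (circles) and of the 11 class II members (squares) in each library against the same mean for T cell, dendritic cell and macrophage markers. The libraries with the highest T cell means hold the highest class II means, and the class II points cover a wider vertical range (4.56 to 8.33) than the class I points (7.03 to 8.53).

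Whether anti-CTLA-4 goes with more antigen presentation was asked over the factorial, as the mean of the 4 groups with the antibody minus the mean of the 4 groups without it (8 against 8 libraries). All 34 members were fitted above 0, with a median log2 fold change of 0.49 over the members, 0.39 over class I and 1.21 over class II, beside -0.00 over all genes tested. No member was called at an adjusted p under 0.05 by edgeR's quasi-likelihood test, a threshold that 0.250% of all genes passed. At an unadjusted p under 0.05, 16 members were higher (11 of class I, 5 of class II) and 0 lower, where 5.84% of all genes were higher. DESeq2 called 1 member, Tap1 (adjusted p = 0.048), where it called 2.24% of all genes higher. With the near-identical APG-157 + anti-CTLA-4 pair summed, the 49 genes called over the whole table became 0, and the medians were 0.38 in class I and 1.21 in class II.

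The 5 largest fitted changes were all class II. H2-Ab1 was fitted at 1.40 (SE 0.63, adjusted p = 0.48), H2-Eb1 at 1.31 (adjusted p = 0.53), Ciita at 1.27 (adjusted p = 0.45), H2-Aa at 1.22 (SE 0.64, adjusted p = 0.59) and Cd74 at 1.22 (adjusted p = 0.57), all from edgeR. H2-Aa ran from 73.3 through a median of 1271 to 2593 CPM with anti-CTLA-4, and from 63.8 through 557 to 1272 CPM without it. So 4 of the 8 libraries with the antibody lay above every library without it, while anti-CTLA-4 replicate B and replicate B of the triple combination lay near the bottom, and the arms overlapped for all 34 members.

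The smallest adjusted p-values belonged to class I regulators and transport. Nlrc5 ran from 24.3 through a median of 108 to 134 CPM with anti-CTLA-4 and from 35.7 through 55.3 to 85.2 CPM without it, and 6 of the 8 libraries with the antibody lay above all those without it. Its log2 fold change was 0.71 (SE 0.24, adjusted p = 0.27 from edgeR). Tap1 ran from 43.9 through 235 to 318 CPM against 59.9 through 107 to 188 CPM, with a log2 fold change of 0.90 (SE 0.31, adjusted p = 0.29 from edgeR). Without anti-CTLA-4 replicate B, edgeR called 4 members higher (Nlrc5, Tap1, Tap2 and H2-T22), where 0.441% of all genes were called higher, and without anti-CTLA-4 replicate A the class II median was 0.36 and the class I median 0.15.

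H2-K1 (0.46, SE 0.20, adjusted p = 0.45) and B2m (0.35, SE 0.15, adjusted p = 0.42) lay near the class I median in edgeR. The 5 smallest fitted changes were those of Canx (0.03), Pdia3 (0.06), Ifi30 (0.06), Calr (0.08) and Erap1 (0.16). The summed heavy chains were fitted at 0.46 (SE 0.20, adjusted p = 0.47 from edgeR). In the same arms the T cell list ran from 9.81 through a median of 112 to 283 CPM with anti-CTLA-4 and from 11.4 through 41.5 to 129 CPM without it, and its part in the members' values was not tested.

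With dual antibody, most members lay above control. Both libraries lay above both control libraries for 32 of 34 members, where 18.8% of all genes did so, and the exceptions were Canx and Ifi30. No member passed the adjusted threshold in edgeR (0% of all genes did) or in DESeq2. At an unadjusted p under 0.05 edgeR had 13 members higher (11 of class I and 2 of class II), beside 4.22% of all genes, and 0 lower.

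Tap1 was at 264 and 318 CPM with both antibodies against 103 and 95.1 CPM in control, a log2 fold change of 1.55 (SE 0.63, adjusted p = 0.78 from edgeR). Nlrc5 was at 107 and 134 against 55.0 and 47.5 CPM (1.23, SE 0.48, adjusted p = 0.76). H2-K1 was fitted at 0.90 (adjusted p = 0.83), B2m at 0.70 (adjusted p = 0.80) and the summed heavy chains at 0.91 (SE 0.41, adjusted p = 0.83), in the same edgeR fit. H2-Eb1 was fitted highest at 2.09 (SE 1.29, adjusted p = 0.93), H2-Ab1 at 2.06 and H2-Aa at 1.84, and the medians were 0.82 in class I and 1.81 in class II, beside -0.04 over all genes.

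These standard errors carry the spread of all 10 groups, among them those with 1 high and 1 low library. In a fit of the 4 libraries of this comparison alone, edgeR called 19 members higher (10 of class I, among them Tap1, Tap2, Nlrc5 and H2-K1, and 9 of class II), where 1.74% of all genes were called higher, and the summed heavy chains passed at an adjusted p of 0.048. The T cell list was at 172 and 283 CPM in the 2 libraries against 30.3 and 43.1 CPM in control. The macrophage list was at 9803 and 8838 against 7195 and 7920 CPM, and the dendritic cell list at 291 and 293 against 292 and 342 CPM. The part of these lists was not tested.

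APG-157 + anti-CTLA-4 had its largest fitted values against control in the class I regulator and transporter. Nlrc5 was at 113 and 110 CPM against 55.0 and 47.5 CPM in control, a log2 fold change of 1.12 (SE 0.48, adjusted p = 0.43 from edgeR). Tap1 was at 213 and 200 against 103 and 95.1 CPM (1.06, adjusted p = 0.53), and Tap2 followed at 0.81, Ciita at 0.69 and H2-T23 at 0.58. Fitted lowest were H2-Aa (-0.18, SE 1.27), Pdia3 (-0.10), Calr (-0.08), H2-Eb1 (-0.06) and Ifi30 (-0.03).

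No member was called by edgeR, where 0.0204% of all genes were, and none by DESeq2. At an unadjusted p under 0.05 edgeR had 1 member higher, Nlrc5, and 0 lower, no more than this threshold passes without any effect. Both libraries lay above both control libraries for 23 members (18 of class I and 5 of class II) and below for 2 (Calr and Pdia3), beside 28.8% of all genes above. The T cell list was at 52.5 and 51.0 against 30.3 and 43.1 CPM, the fibroblast list at 1820 and 1731 against 2674 and 2618 CPM, and the neutrophil list at 116 and 114 against 196 and 162 CPM, and their part was not tested. The class II chains H2-Aa, H2-Ab1 and H2-Eb1 and the invariant chain Cd74 overlapped with control, and the medians were 0.34 for class I and 0.19 for class II. In the fit of these 4 libraries alone, edgeR called Nlrc5, Tap1, Tap2 and Ciita higher, where 2.26% of all genes were. These 4 calls take the near-identical pair as 2 samples, and that fit was not repeated with the pair summed.

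**Figure D5:**
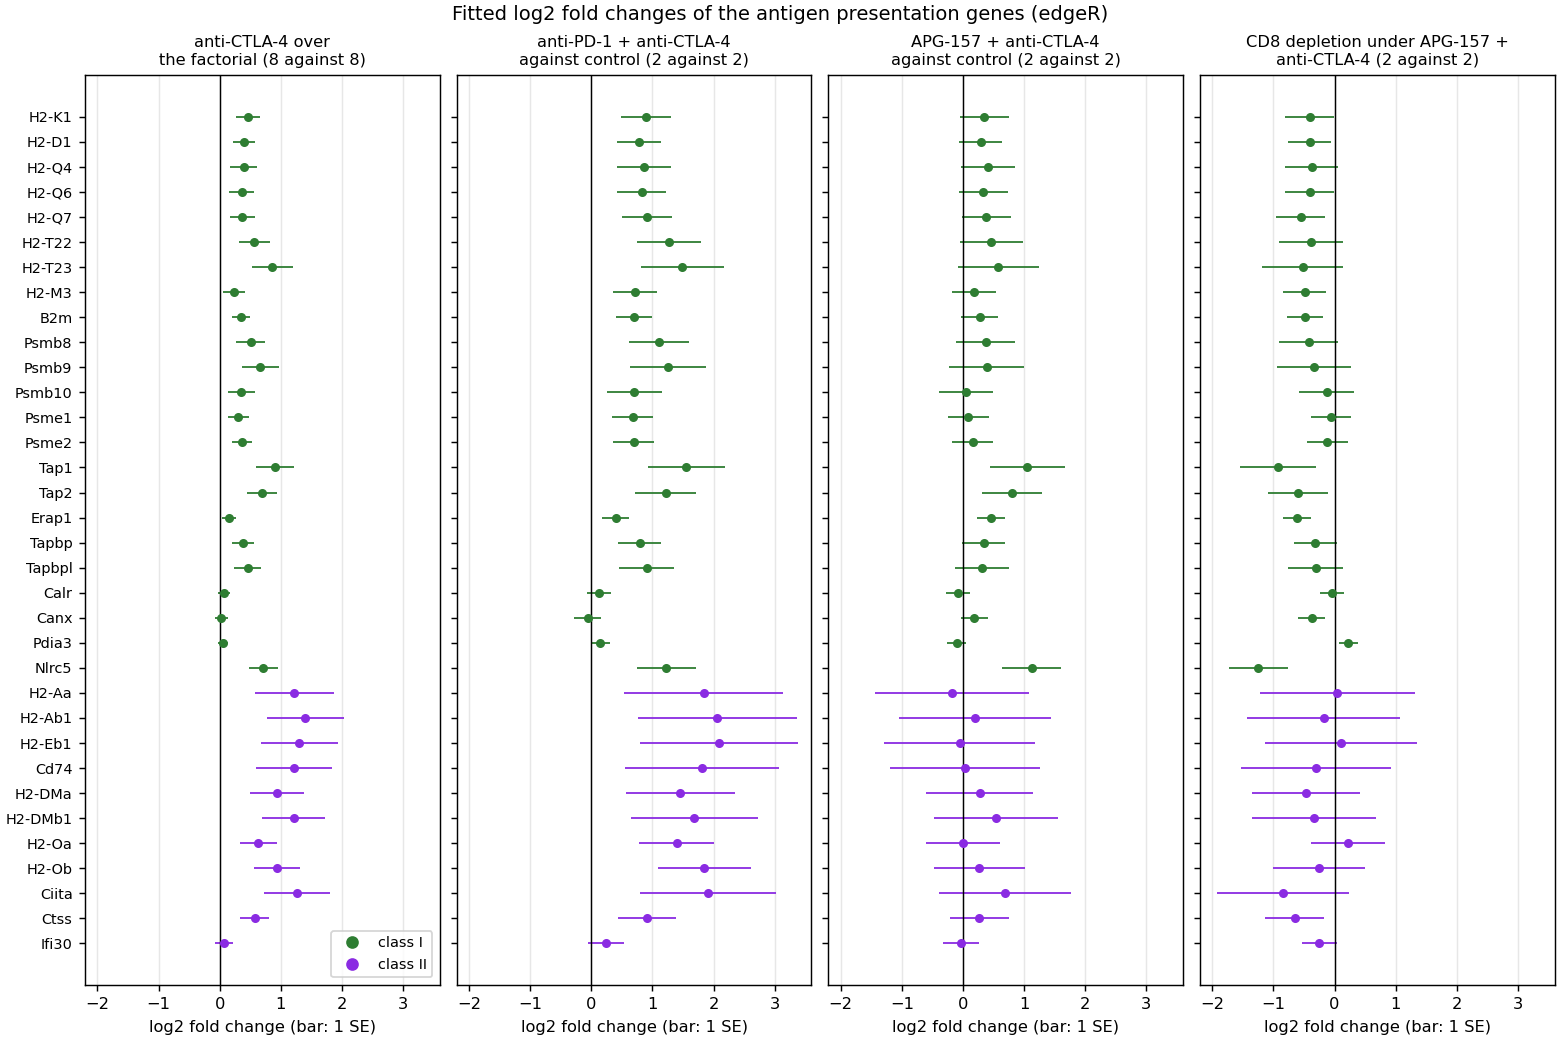
Fitted log2 fold change of each member (points, class I green and class II purple) with 1 SE (bars) in 4 comparisons. Class II points lie furthest to the right for dual antibody against control (up to 2.09) and between -0.18 and 0.69 for APG-157 + anti-CTLA-4 against control, and under CD8 depletion the lowest point is Nlrc5 (-1.25).

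With APG-157 without an antibody, class II was low. Both libraries lay below both control libraries for 22 of 34 members (9 of 11 class II), where 13.2% of all genes did so. H2-Aa was fitted at -2.32 (SE 1.33), Cd74 at -2.28 and Ciita at -2.18, and the medians were -1.71 in class II and -0.25 in class I. No member was called by edgeR (0% of all genes) or by DESeq2, and 0 had an unadjusted p under 0.05 in edgeR. The T cell list was at 13.4 and 11.4 CPM here, below its 30.3 and 43.1 CPM in control, and its part was not tested. Over the factorial APG-157 had medians of -0.12 in class I and -0.52 in class II, with no member called by edgeR (0% of all genes) or DESeq2 and 0 at an unadjusted p under 0.05. Without anti-CTLA-4 replicate A both medians turned sign, to 0.13 and 0.06.

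The other comparisons with control used the same 2 control libraries. The class I median was 0.16 and the class II median 0.09 for anti-PD-1. For anti-CTLA-4 they were 0.39 and 0.31. For APG-157 joined to anti-PD-1 they were 0.34 and 0.41, and for the triple combination 0.39 and 0.84. In all 4, edgeR called no member (0% of all genes in each) and DESeq2 called none. At an unadjusted p under 0.05 edgeR had 1 member in all, Pdia3 higher with anti-CTLA-4 (0.39, SE 0.15, adjusted p = 0.77). That is fewer than this threshold passes without any effect. Without replicate A the class II median was -2.03 with anti-CTLA-4 and -1.71 with the triple combination, so that 1 library set the sign in each. The class II median was -0.40 with anti-PD-1 without its replicate B and -0.12 with APG-157 + anti-PD-1 without its replicate A. Anti-PD-1 over the factorial had medians of 0.32 in class I and 1.19 in class II. With 1 library left out they ran from 0.19 to 0.59 (without anti-CTLA-4 replicates B and A) and from 0.40 (without replicate A of the triple combination) to 1.61 (without anti-CTLA-4 replicate A). The T cell list had a median of 98.8 CPM with anti-PD-1 and 36.7 CPM without it, and its part was not tested. Here edgeR called no member (0% of all genes). At an unadjusted p under 0.05 it had 2 higher, H2-Ob (1.19, adjusted p = 0.56) and Ciita (1.34, adjusted p = 0.56), and DESeq2 called none. Those 2 are near the count that this threshold passes without any effect.

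Whether the effect of APG-157 differs with anti-CTLA-4 was tested as an interaction. No member was called by edgeR, where 0.00511% of all genes were, and none by DESeq2. At an unadjusted p under 0.05 edgeR had 1, no more than this threshold passes without any effect. It was the thiol oxidoreductase Pdia3 of the loading complex, lower by 0.68 on the log2 scale (SE 0.22, adjusted p = 0.46). The class II median was 1.53, and it was 4.27 without anti-CTLA-4 replicate A and 0.65 without anti-CTLA-4 replicate B. The class I median was 0.17, and it was -0.35 without anti-CTLA-4 replicate B.

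Depletion of CD8+ T cells went with low class II in mice that received no other agent. H2-Aa was at 70.1 and 95.0 CPM with anti-CD8 against 540 and 846 CPM in control, with no overlap, and was fitted at -3.07 (SE 1.37, adjusted p = 1.00 from edgeR). Cd74 was at 152 and 218 against 1222 and 1835 CPM (-3.05, SE 1.32). Ciita, at 4.70 and 4.35 CPM against a control mean of 25.2 ± 1.73 CPM (SD, n = 2), was fitted at -2.48 (SE 1.14). Both libraries lay below both control libraries for 29 of 34 members, where 19.1% of all genes did so, and the medians were -1.90 in class II and -0.56 in class I.

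No member was called by edgeR (0% of all genes) or DESeq2, and at an unadjusted p under 0.05 edgeR had 2 lower, Cd74 and H2-Aa. In the fit of these 4 libraries alone, edgeR called 5 members lower, all class II (Cd74, Ciita, H2-Aa, H2-Ab1 and H2-Eb1), where 0.0880% of all genes were. The macrophage list summed to 4989 and 7225 CPM against 7195 and 7920 CPM in control and the dendritic cell list to 336 and 304 against 292 and 342 CPM. The T cell list was at 8.95 and 10.6 against 30.3 and 43.1 CPM. It includes the genes of the depleted cells, Cd8a (0.144 and 0.121 against 5.66 and 6.67 CPM) and Cd8b1 (0.215 and 0.107 against 2.30 and 3.11 CPM). The part of these cells was not tested.

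Under APG-157 + anti-CTLA-4, depletion of CD8+ T cells went with lower class I values, while the class II chains overlapped. H2-Aa was at 430 and 833 CPM with depletion against 619 and 606 CPM without it, and was fitted at 0.04 (SE 1.26). Nlrc5 was at 48.0 and 46.4 against 113 and 110 CPM, fitted at -1.25 (SE 0.49, adjusted p = 0.083 from edgeR). Erap1 was at 119 and 92.6 against 158 and 165 CPM, fitted at -0.61 (SE 0.22, adjusted p = 0.068), and Tap1 at -0.93 (adjusted p = 0.28). Both libraries lay below for 25 of 34 members (21 of class I, 4 of class II) and above for 1, Pdia3 (0.22), where 31.1% of all genes lay below, and the medians were -0.40 in class I and -0.25 in class II, beside 0.09 over all genes. The T cell list was at 27.4 and 34.3 CPM with depletion against 52.5 and 51.0 CPM without it. Much of this fall lay in 2 of its genes that mark the depleted cells. Cd8a was at 0.260 and 0.381 against 11.9 and 11.9 CPM, and Cd8b1 at 0.347 and 0.444 against 4.28 and 4.33 CPM. The macrophage list was at 6506 and 3318 against 7368 and 7177 CPM. The part of the 2 lists was not tested.

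No member was called by edgeR, where 19.0% of all genes were. At an unadjusted p under 0.05 edgeR had 2 members lower, Nlrc5 and Erap1, and 0 higher, beside 17.0% of all genes lower. With the replicate letter as a block, edgeR called Erap1 lower (adjusted p = 0.032), beside 8.71% of all genes. DESeq2 called Nlrc5 and Erap1 lower (adjusted p = 0.035 for Nlrc5 and 0.042 for Erap1), where 12.3% of all genes were called lower. Without replicate A of the anti-CD8 combination, edgeR called Erap1 lower, beside 17.6% of all genes. The 3722 genes called over the whole table fell to 2 when the near-identical APG-157 + anti-CTLA-4 pair was summed and to 8 when replicate B of the anti-CD8 combination was left out. Compared with control, the anti-CD8 combination had medians of -0.05 in class I and -0.14 in class II, with no member called by edgeR (0.0102% of all genes were) or DESeq2 and 0 at an unadjusted p under 0.05.

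Genes that surround the pathway were counted from 6 further lists. The edgeR calls all came from CD8 depletion under APG-157 + anti-CTLA-4, where edgeR called 8, beside 19.0% of all genes. Lower were Nfya, a subunit of the factor that binds CCAAT (-0.42, adjusted p = 0.037), 1 of 7 class II promoter factors, and Marchf1 (-1.25, adjusted p = 0.046), the ubiquitin ligase that removes class II from the surface, with cathepsin L (Ctsl, -0.59), 2 of 8 turnover and protease genes. The peptidases Tpp2 (-0.73), Lnpep (-0.76) and Ide (-0.51) were lower, 3 of 8 genes of the class I chaperones and peptide pathway, as was Jak1 (-0.59), 1 of 10 of interferon gamma signalling. Cd1d1, which presents lipids, was higher (2.01, adjusted p = 0.029), 1 of 12 other MHC genes, and 0 of 15 constitutive proteasome genes were called.

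All 8 calls were lost when replicate B of the anti-CD8 combination was left out, without either APG-157 + anti-CTLA-4 library, and with that pair summed. With the pair summed the fitted values moved little (Nfya -0.45, Marchf1 -1.27, Tpp2 -0.75, Lnpep -0.79 and Cd1d1 1.98), and each had an adjusted p of 0.19 in edgeR. Cd1d1 was at 7.47 and 41.1 CPM in replicates A and B of the anti-CD8 combination, the latter being the library with the high adipocyte and Epcam values, and without replicate B it was fitted at 0.31.

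In the other comparisons edgeR called no gene of these lists, where it called between 0% and 0.250% of all genes. DESeq2 called Ifng, Socs1, H2-M2 and Ctsl higher for anti-CTLA-4 over the factorial (adjusted p = 0.0028, 0.0026, 0.040 and 0.044), where it called 2.24% of all genes higher. For the anti-CD8 combination against control it called Cd1d1 higher and Nfya lower, where it called 6.85% of all genes in either direction. For APG-157 + anti-CTLA-4 against control the largest fitted values were Ifng (2.68, adjusted p = 0.51) of interferon gamma signalling, H2-M2 (1.27, adjusted p = 0.71) and H2-T24 (1.17, adjusted p = 0.47) of the other MHC genes, and Lnpep (0.57) and Tpp2 (0.34) of the peptide pathway. They were Rfxank (-0.55) and Nfyc (-0.26) of the promoter factors, Marchf1 (0.54) and Ctsl (0.36) of turnover, and Psmb3 (-0.24) and Psmb4 (-0.22) of the constitutive proteasome list, all from edgeR.

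Constitutive proteasome genes and immunoproteasome genes are set side by side. Psmb8, Psmb9 and Psmb10 replace catalytic subunits of the constitutive form in cells that see interferon. The constitutive list also holds subunits common to both forms and the activator gene Psme3. For dual antibody against control the 15 genes of that list had a median log2 fold change of 0.08 and lay between -0.14 and 0.23. The 5 immunoproteasome and activator members had a median of 0.71 and lay between 0.68 and 1.25. Over the factorial for anti-CTLA-4 the medians were 0.03 and 0.37. In that comparison Ifng, at 0.142 through 3.77 to 11.4 CPM with the antibody and 0.101 through 0.585 to 2.89 CPM without it, had a log2 fold change of 2.72 (SE 0.75, adjusted p = 0.18 from edgeR). Socs1, which interferon gamma induces and which damps its signal, was fitted at 0.98 (SE 0.23, adjusted p = 0.097 from edgeR), with 6 of the 8 libraries with the antibody above all those without it.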

How the data were processed

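Total RNA of SCCVII tumors was sequenced as 20 mRNA libraries. Per the submitters' processing notes, reads were checked with FastQC, trimmed with Trimmomatic 0.39 and quantified with Salmon 1.5.0 on GRCm39. The authors deposited expected counts per gene, which need not be whole (71.5% of values were). A second table of log2 values deposited by the authors was not used here. Counts were rounded and fitted in edgeR 4.0.16 (R 4.3.3, limma 3.58.1) with TMM scaling, filterByExpr (minimum count 10, minimum total 15) and the robust quasi-likelihood test, on all 20 libraries with 1 mean per group. A call is a Benjamini-Hochberg adjusted p under 0.05 over all genes. DESeq2 1.42.0 was an alternative. Levels are CPM, and log2 levels use a pseudocount of 0.1. Figures were drawn with matplotlib 3.10.9. The fit was tested on simulated data.

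The members and lists were chosen with earlier results of these data known. The text names B2m, H2-K1, H2-Aa, called genes, the most abundant member of each role, the 5 highest and 5 lowest fits for APG-157 + anti-CTLA-4 against control and for anti-CTLA-4 over the factorial, and from each other list the called genes and the 2 largest fits. Other genes, among them H2-T23 and H2-Ea for their levels and Ifng and Socs1 for anti-CTLA-4 over the factorial, were chosen after their values were seen. Alternatives changed the scaling, filter, tool, fold minimum, samples, covariate and block, summed a pair, or left out each library. Those for the other pathway genes were chosen after seeing the data. Some results, among them 1 of the 2 largest fits of the interferon gamma list, are not reported here.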

Additional observations from a re-analysis of the deposited data

How the results depend on the processing

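The counts of called members, 0 in every comparison, changed under 4 kinds of alternative. On the compared groups only, edgeR called 4 for APG-157 + anti-CTLA-4 against control, 19 for dual antibody, 5 for anti-CD8, and the summed heavy chains passed for dual antibody (0.92, adjusted p = 0.048). DESeq2 called 1 for anti-CTLA-4 over the factorial and 2 with CD8 depletion. With the replicate letter as a block, edgeR called 1 with CD8 depletion (Erap1, adjusted p = 0.032), beside 8.71% of all genes lower. Whether the letters mark a pairing or a batch was not settled. Over 45 pairs of groups the correlation of the A minus B deviations ran from -0.51 to 0.79, with a median of 0.015, and was over 0.1 in 15. Such values cannot separate a factor shared by a letter from differences between single libraries. In the column names every A library is numbered before every B library. With 1 library left out, edgeR called 0 to 4 members for anti-CTLA-4 over the factorial and 0 to 1 with CD8 depletion (Nlrc5 without either anti-CTLA-4 library, Erap1 without replicate A of the anti-CD8 combination). All genes called for anti-CTLA-4 over the factorial numbered 49, and 0 to 125 with 1 library left out.

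With 1 library left out, the class I median ran from -0.60 to 0.93 for anti-CTLA-4 against control, from -0.084 to 0.81 for the triple combination and from -0.35 to 1.17 for the interaction. The class II median ran from -2.03 to 1.12, from -1.71 to 1.73 and from 0.65 to 4.27. The summed heavy chains ran from -0.76 to 0.95, from -0.089 to 0.84 and from -0.32 to 1.39, from -0.20 to 0.055 for the anti-CD8 combination against control and from -0.29 to 0.13 for APG-157 over the factorial. With a mean of at least 1 CPM as filter they were 0.020 for the anti-CD8 combination against control, where the reported value was -0.05. For APG-157 + anti-CTLA-4 against control, Cd74 ran from -0.23 without control replicate A to 0.36 without control replicate B, and H2-Aa from -0.47 to 0.18. With CD8 depletion, Cd74 ran from -0.86 to 0.065, without replicates B and A in turn of the anti-CD8 combination, and H2-Aa from -0.51 to 0.42 in the same way and was -0.088 with the skeletal muscle list as a covariate. The cause was not tested. B2m, H2-K1, Nlrc5, Tap1 and Erap1 changed sign under no alternative in the 4 comparisons in which they were followed. Depth limits H2-Oa most, the member with the lowest level (0.693 CPM in anti-CTLA-4 replicate B).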
